A study of Bos taurus with 8 samples.

Results

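The mitochondrial enzymes that carry fatty acids into the matrix and oxidise them were followed in bovine blastocysts exposed to buthionine sulfoximine (BSO) and in untreated controls. BSO blocks the first enzyme of glutathione synthesis. The 10 genes considered were CPT1A, CPT2, ACADM, ACADS, ACADVL, HADHA, HADHB, ETFA, ETFB and ETFDH, and every array probe that the platform annotation assigns to one of these symbols was used. This gave 16 of the 43794 gene probes on the array, for 9 of the 10 genes. No probe carried the symbol HADHA, so that gene is not analysed here. All embryos of both groups were produced in vitro from oocytes of slaughterhouse ovaries and grown in synthetic oviductal fluid. The BSO group received 0.4 mM BSO from day 3 to day 5 and 0.01 mM from day 5 to day 7, and the control group received no BSO. Whole blastocysts were taken at 196 h after in vitro fertilization, 10 to a pool, and the RNA of 4 pools of each treatment was amplified and labelled. Each of 8 arrays compared a BSO pool with a control pool, with BSO in the red dye Cy5 on 4 arrays and in the green dye Cy3 on the other 4. Arrays of opposite orientation were averaged to 4 replicates, and each value below is a log2 ratio of BSO over control where no other unit is named. Whether the pools were independent cultures is not stated, so every p-value refers to the variation among these pools, part of which may be technical.

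Long-chain fatty acids cross into mitochondria as carnitine esters, made by CPT1A in the outer membrane and turned back to acyl-CoA by CPT2 in the inner membrane. Acyl-CoA dehydrogenases of overlapping chain-length preference (ACADVL for very long, ACADM for medium and ACADS for short chains) take the first oxidation step, and the trifunctional protein, built of HADHA and HADHB, completes the cycle for long chains. Electrons from the dehydrogenases pass to the electron transfer flavoprotein, a dimer of ETFA and ETFB, and from there through ETFDH to ubiquinone. Bovine oocytes are rich in lipid, and fatty acid oxidation is known as an energy source of the early embryo.

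A probe was tested if its raw spot intensity exceeded the 95th percentile of the negative-control spots on at least 4 of 8 arrays in either treatment, and 36995 probes of 13678 named genes passed. Of the fatty acid oxidation probes, 15 passed this filter and 9 also passed a stricter one set at 2 times that limit. The blastocyst label was checked with marker lists, of which 19 of 27 measured trophectoderm, 9 of 17 epiblast and 11 of 17 hypoblast markers passed the stricter filter. Of the 16 measured cumulus and granulosa markers, which could come from maternal cells, 7 did. Of all 13678 genes, 6571 did. A marker counted as measured had also passed the first filter, so these counts are a weak check. Trophectoderm markers stood lower in BSO pools, with a median of -0.26 over the 27 genes and 9 lower against 2 higher at an unadjusted p under 0.05, where 14% of all genes were lower and 13.8% higher. KRT19, IFNT and TKDP1 were lowest, at -1.22, -1.10 and -1.08. Transcription factors went both ways, with CDX2, GATA3, GATA2 and TFAP2C at 0.025, -0.021, -0.081 and 0.15. The 2 higher genes were ELF5 and EOMES, at 0.20 and 0.15. DLX3, TFAP2A, ID2, HAND1 and TEAD4 lay at -0.53, -0.48, -0.47, -0.18 and -0.088. Mean log2 raw intensity was at most 7.75 for CDX2, ELF5, EOMES, HAND1 and TEAD4. The medians were -0.016 for epiblast, -0.045 for hypoblast and 0.038 for cumulus markers. At an unadjusted limma p under 0.05, 3 epiblast markers were higher and 4 lower, and hypoblast markers gave the same counts. These were 41.2% of the measured markers in either list, near the 40.7% of the trophectoderm list. Of the cumulus markers 0 were higher and 3 lower, or 18.8% of those measured against 27.8% of all genes. Summed over the trophectoderm markers, raw intensity ran from 121400 to 211900 in BSO and from 181300 to 235000 in control channels. The sum ran from 5762 to 13750 in BSO and from 3748 to 8985 in control channels for cumulus markers, from 25550 to 38020 and 22430 to 31340 for epiblast markers, and from 114400 to 130100 and 111700 to 133700 for hypoblast markers. Among the cumulus markers LUM, named after its values were seen, was at -0.38, 3.67, 1.15 and 5.08 in replicates 1 to 4. Its mean was 2.38 ± 0.97 (SE), with an unadjusted limma p of 0.0610 and an adjusted p of 0.211, so it is not among the genes counted above. At the brightest probes, replicates 2 and 4, where LUM was highest, also held the highest ACADM, HADHB and ETFDH ratios. They held the lowest ETFB, CPT2 and ETFA ratios, while CPT1A, ACADS and ACADVL did not divide the replicates in this way. LUM is a single gene of its list, whose markers past the unadjusted threshold were all lower, and a link to the members was not tested. The part of these marker differences in the results below was not tested, and in pools of whole embryos fewer cells of a type and less RNA per cell cannot be told apart.

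The oxidation enzymes had ratios of both signs with BSO. HADHB, ETFDH and ETFA lay above control in all 4 replicates, by 1.33-fold, 1.33-fold and 1.28-fold at the brightest probe, whereas ETFB, the partner of ETFA, lay below control in all 4, by 1.41-fold. ACADS was also below control in all 4, by 1.09-fold at a dim probe, and CPT1A, CPT2, ACADM and ACADVL had replicates of both signs. No member passed an adjusted p of 0.05 with limma, a threshold that 0.629% of all genes and 0.595% of all probes passed. At an unadjusted p under 0.05 there were 5 of 9 member genes, or 55.6%, against 27.8% of all genes. Of these, 3 were higher and 2 lower, where 13.8% of all genes were higher and 14% lower. Counted by probe there were 7 of 15, 4 higher and 3 lower, against 26% of all probes, 12.6% higher and 13.4% lower. Ratios of the same sign in all 4 replicates were found for 5 of 9 member genes and for 37.5% of all genes. The median ratio of the 9 genes was -0.031 and that of all genes 0.017, while the median size of the ratio, regardless of sign, was 0.24 for the members and 0.11 for all genes. Over all probes, 48.6% of those at an unadjusted p under 0.05 were higher with BSO in the deposited values, but 38.6% after loess normalization of the scanner intensities. The counts of member genes were 3 higher and 2 lower with both.

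**Figure D1:**
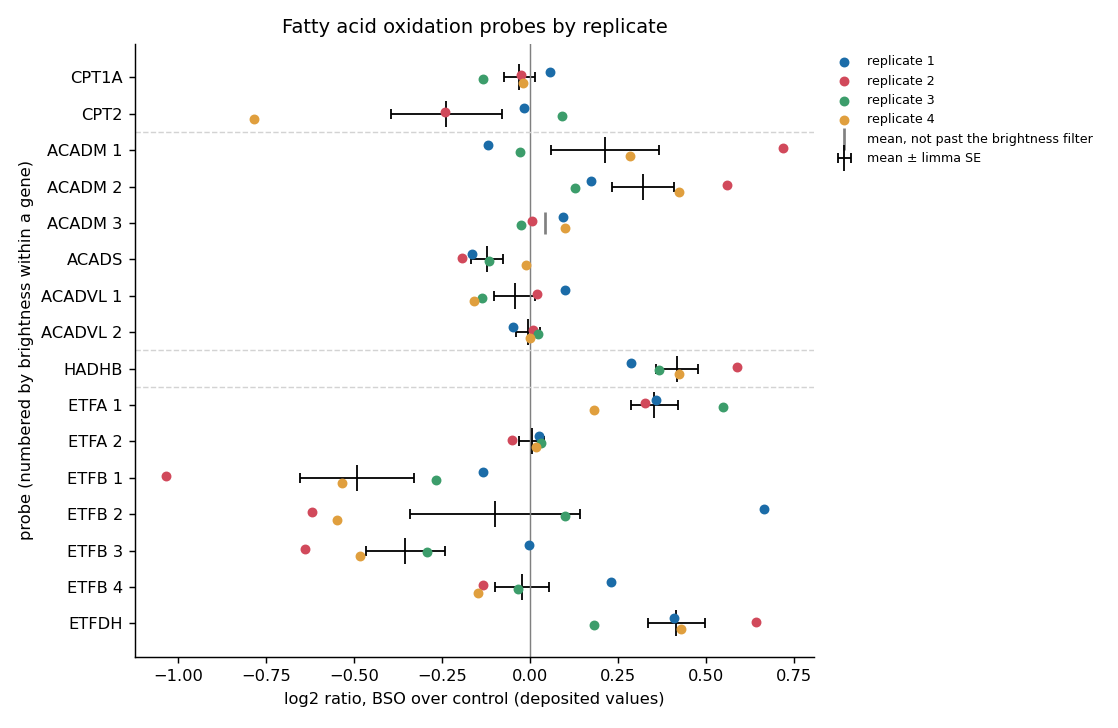
The horizontal axis gives the deposited log2 ratio of BSO over control for each of the 16 probes of the 9 genes, numbered within a gene from the brightest. Coloured points are the 4 replicates, black bars are the mean ± limma standard error, and the grey bar is the mean of the ACADM probe that did not pass the brightness filter. All 4 points of HADHB, ETFDH and the brightest ETFA probe lie above 0, and all 4 of the brightest ETFB probe lie below 0.

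Entry into mitochondria was measured by 1 probe per carnitine palmitoyltransferase. CPT1A, the step that malonyl-CoA inhibits, had ratios of 0.056, -0.027, -0.13 and -0.021 in replicates 1 to 4 (probe EMBV3_04980). They lay on both sides of 0, with a mean of -0.031 ± 0.044 (SE) and a limma adjusted p of 0.678. Its 95% interval ran from -0.15 to 0.084. CPT2 had ratios of -0.017, -0.24, 0.089 and -0.78 (probe EMBV3_08047), so 1 replicate stood well below the other 3. Both arrays of replicate 4 showed it, at -0.81 with BSO in Cy5 and -0.76 with BSO in Cy3, and no other CPT2 array was below -0.28. The CPT2 mean was -0.24 ± 0.16 (SE), with a limma adjusted p of 0.382, and without replicate 4 it was -0.056. The raw CPT2 intensity ran from 441 through a median of 779 to 1144 in BSO channels and from 484 through 963 to 1358 in control channels, so the treatments overlapped.

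The acyl-CoA dehydrogenases gave no common direction. ACADM, which acts on medium chains, had 3 probes. The brightest (EMBV3_23335) had ratios of -0.12, 0.72, -0.027 and 0.28, with a mean of 0.21 ± 0.15 (SE) and a limma adjusted p of 0.416. The second ACADM probe (EMBV3_00908) was above 0 in all 4 replicates, at 0.17, 0.56, 0.13 and 0.42. Its mean was 0.32 ± 0.087 (SE), with an unadjusted limma p of 0.0157 and an adjusted p of 0.118. Both ACADM probes ordered the replicates with 2 and 4 above 1 and 3, but they differ on whether replicates 1 and 3 lay above control. The third ACADM probe (EMBV3_33938) exceeded the negative-control limit on 2 arrays in BSO and 3 in control channels and was not tested, with replicate ratios between -0.025 and 0.10.

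ACADS, the short-chain enzyme, was slightly below control in every replicate, at -0.16, -0.19, -0.12 and -0.012 (probe EMBV3_30632). Its probe was dim and did not pass the stricter filter, with raw intensity from 184 to 298 in BSO and from 171 to 252 in control channels. The mean was -0.12 ± 0.045 (SE), with an unadjusted limma p of 0.0439 and an adjusted p of 0.181. This mean came from dye orientations of opposite sign. ACADS was above 0 on all 4 arrays with BSO in Cy5, from 0.028 to 0.27, and below 0 on all 4 with BSO in Cy3, from -0.47 to -0.29. The very-long-chain enzyme ACADVL had 2 dim probes with means of -0.044 ± 0.059 (SE) (EMBV3_03628) and -0.0048 ± 0.034 (SE) (EMBV3_13488) and limma adjusted p of 0.653 and 0.938. Their 95% intervals ran from -0.20 to 0.11 and from -0.094 to 0.084, and neither probe had one sign in all replicates.

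HADHB, the thiolase-bearing subunit of the trifunctional protein, had the lowest p of the members. Its ratios were 0.29, 0.59, 0.37 and 0.42 in replicates 1 to 4 (probe EMBV3_15340), all above control. Raw intensity ran from 3728 through a median of 5436 to 8953 in BSO channels and from 2549 through 3894 to 6001 in control channels, so the pooled ranges overlapped between arrays. Within each of the 8 arrays, however, the BSO channel was brighter than the control channel, and the log2 ratio of the 8 arrays ran from 0.20 to 0.60. Raw channels are not balanced for dye. With BSO in Cy3, CPT1A was also brighter in the BSO channel on every array, at log2 ratios below 0. The mean was 0.42 ± 0.060 (SE), or 1.33-fold, with an unadjusted limma p of 0.00114 and an adjusted p of 0.0615. Both dye orientations gave similar means, 0.38 with BSO in Cy5 and 0.45 with BSO in Cy3. With the 8 arrays fitted singly, the matched pair as a block and a dye term, the limma adjusted p was 0.00431, in a fit that called 14.5% of all genes. Over the alternatives tried, the limma adjusted p ran from 0.00336 to 0.342 and was under 0.05 in 5 of 16. These were the fit without background correction, the one with array weights and every fit of the 8 arrays singly. The lowest came from the replicate block without a dye term, where paired arrays counted almost as independent. The partner subunit HADHA lies next to HADHB in the RefSeq gene order, and the ratio between the subunits could not be formed without a HADHA probe.

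In electron transfer, ETFA and ETFDH lay above control and ETFB below it at their brightest probes. ETFA, which encodes the larger subunit of the flavoprotein, had ratios of 0.36, 0.33, 0.55 and 0.18 at its brighter probe (EMBV3_20173). All 8 arrays were above 0, from 0.026 to 0.61, and the mean was 0.35 ± 0.068 (SE), with an unadjusted limma p of 0.00391 and an adjusted p of 0.0780. Raw intensity of this ETFA probe ran from 1002 through a median of 1329 to 1631 in BSO and from 792 through 993 to 1335 in control channels. The second ETFA probe (EMBV3_04727) was dim, and its mean of 0.0050 ± 0.035 (SE) had a limma adjusted p of 0.938. The 2 ETFA probes thus disagree, and the 95% interval of the dim one, from -0.087 to 0.097, does not reach that of the brighter one, from 0.18 to 0.53.

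ETFB, the small subunit that holds the AMP of the flavoprotein, had ratios of -0.13, -1.03, -0.27 and -0.53 at the brightest of 4 probes (EMBV3_12411). All 4 replicates were below control, and replicate 2 was the lowest on both of its arrays, at -1.14 and -0.93. Raw intensity ran from 1156 through a median of 1815 to 2781 in BSO and from 1774 through 2533 to 3177 in control channels. The mean was -0.49 ± 0.16 (SE), with an unadjusted limma p of 0.0300 and an adjusted p of 0.154, and without replicate 2 it was -0.31. The third ETFB probe by brightness (EMBV3_10286) was at -0.0024, -0.64, -0.29 and -0.48, with a mean of -0.35 ± 0.11 (SE), an unadjusted limma p of 0.0278 and an adjusted p of 0.149. Replicate 1 of this probe was thus close to 0. The second ETFB probe (EMBV3_03002) was widely spread, at 0.67, -0.62, 0.099 and -0.55, with a mean of -0.10 ± 0.24 (SE). The dimmest (EMBV3_17749) had a mean of -0.022 ± 0.077 (SE), and these 2 probes had limma adjusted p of 0.809 and 0.871. Replicate 1 was the highest of the 4 replicates at every ETFB probe, and replicate 2 or 4 the lowest. With all probes of a gene averaged, ETFB had a mean of -0.24 and an unadjusted limma p of 0.153, while ETFA had a mean of 0.18 and a p of 0.0121.

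ETFDH, the oxidoreductase that accepts electrons from the flavoprotein, had ratios of 0.41, 0.64, 0.18 and 0.43 (probe EMBV3_20638), all above control. Its 8 arrays ran from 0.0016 to 0.73, and raw intensity from 521 through a median of 686 to 1043 in BSO and from 328 through 525 to 782 in control channels. The mean was 0.42 ± 0.081 (SE), or 1.33-fold, with an unadjusted limma p of 0.00422 and an adjusted p of 0.0797. The ratio was larger with BSO in Cy5, at 0.57, than with BSO in Cy3, at 0.26. In the fit of 8 arrays with a dye term and the replicate block, the limma adjusted p was 0.00887 for ETFDH, 0.0365 for the brightest ETFB probe and 0.0793 for the brighter ETFA probe. That fit thus called 3 member genes at their brightest probe, HADHB and ETFDH higher and ETFB lower, where 14.5% of all genes passed. Among the other probes it also called the second ACADM probe, higher at an adjusted p of 0.0288, and the third ETFB probe, lower at 0.0348. Over the whole array it called 4463 of 36995 probes. With the replicate block and no dye term, ETFA passed as well, at an adjusted p of 0.0187, which made 4 member genes where 14.2% of all genes passed. The block correlation estimated in that fit was -0.0076, so the paired arrays counted there almost as independent.

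The difference between the subunits of the flavoprotein was measured within each replicate. ETFA minus ETFB, each at its brightest probe, was 0.49, 1.36, 0.81 and 0.72, or 0.84 ± 0.37 (SD, n = 4) on the log2 scale, a 1.80-fold difference in their ratio. It was above 0 in 4 of 4 replicates and on 8 of 8 arrays, from 0.20 to 1.70. The exact two-sided sign-flip permutation test gave the smallest p that 4 replicates allow, which is above 0.05, so this test could not have placed the difference under that threshold. Against ETFB probes 2, 3 and 4 by brightness the mean difference was 0.45, 0.71 and 0.37, above 0 in 3, 4 and 4 replicates. Since the value is a ratio within arrays, it does not tell which subunit differed from control.

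**Figure D2:**
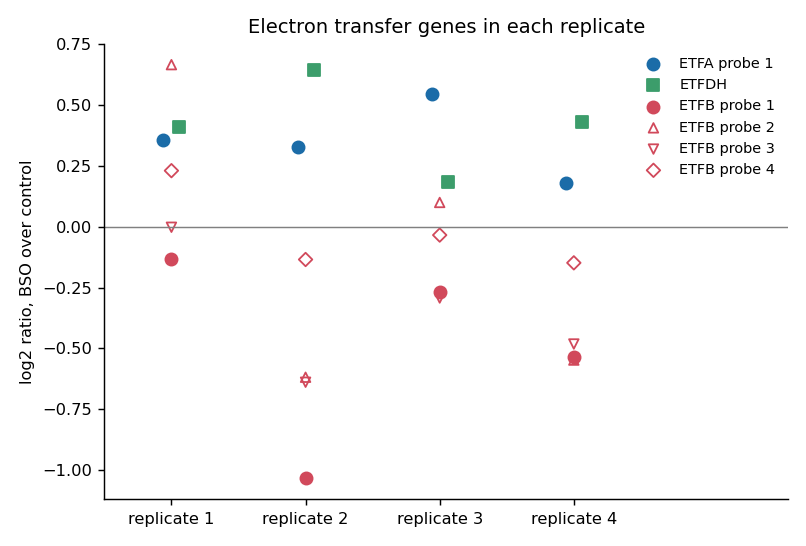
Deposited log2 ratio of BSO over control (vertical) in each of the 4 replicates (horizontal) for the brighter ETFA probe, ETFDH and the 4 ETFB probes, numbered from the brightest. ETFA and ETFDH lie above 0 in every replicate and ETFB probe 1 below 0 in every replicate, while ETFB probe 2 ranges from -0.62 to 0.67.

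The size of a member's ratio went with the brightness of its probe. The 6 probes that passed the filter but not the stricter one had ratios of at most 0.12 in size, and the 9 brighter probes had ratios of at least 0.10. Over all genes the median size was 0.11, and over the genes whose representative probe passed the stricter filter it was 0.20. Of the 6 member genes whose representative probe was that bright, 4 had an unadjusted p under 0.05 (HADHB, ETFA, ETFB and ETFDH), against 34.9% of all such genes. The near-zero means of CPT1A, ACADVL, the second ETFA probe and the dimmest ETFB probe therefore come from spots close to background, and the part of brightness in them was not tested. Spots were far from the top of the scale, since the brightest member spot reached 23.8% of the highest intensity on its array.

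**Figure D3:**
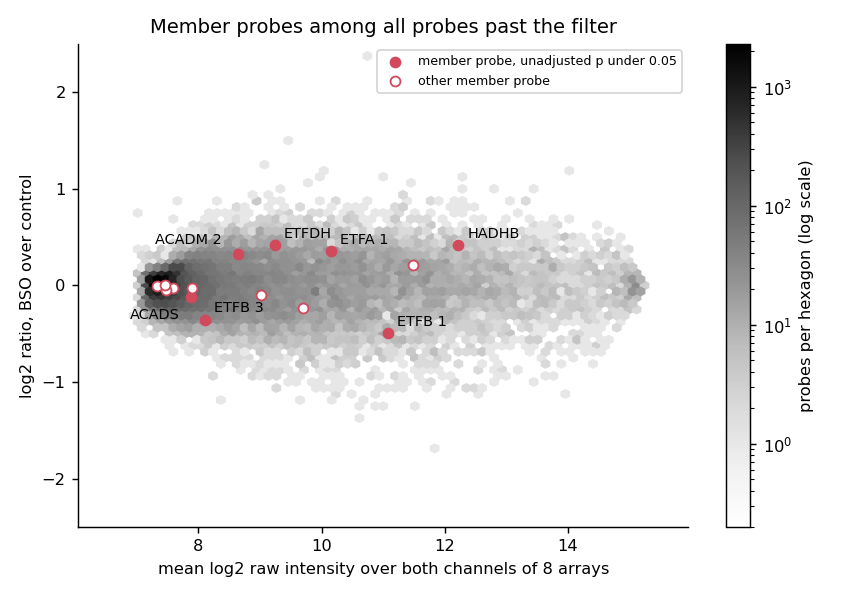
Mean deposited log2 ratio of BSO over control (vertical) against mean log2 raw intensity (horizontal), with all probes past the filter as hexagons shaded by their number on a log scale and the member probes as points, filled where the unadjusted limma p was under 0.05. The dim member probes at the left lie within 0.12 of 0, and the ratios spread in both directions among the brighter ones.

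Dye orientation left its mark on many member probes. At a limma adjusted p under 0.05 for the dye term there were 8 of 15, against 47.6% of all probes. These were CPT1A, the second ACADM probe, ACADS, the dimmer ACADVL and ETFA probes, ETFB probes 3 and 4, and ETFDH. ETFB probe 4 was at -0.27 with BSO in Cy5 and 0.22 with BSO in Cy3, and the dimmer ACADVL probe at -0.26 and 0.25. Each replicate holds both orientations once, so a constant dye effect of a probe cancels in its mean. The probes of HADHB and ETFA with the highest ratios did not pass the dye test, at adjusted p of 0.372 and 0.619, and the brightest ETFB probe was below 0 in the mean of either orientation, at -0.65 and -0.33.

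**Figure D4:**
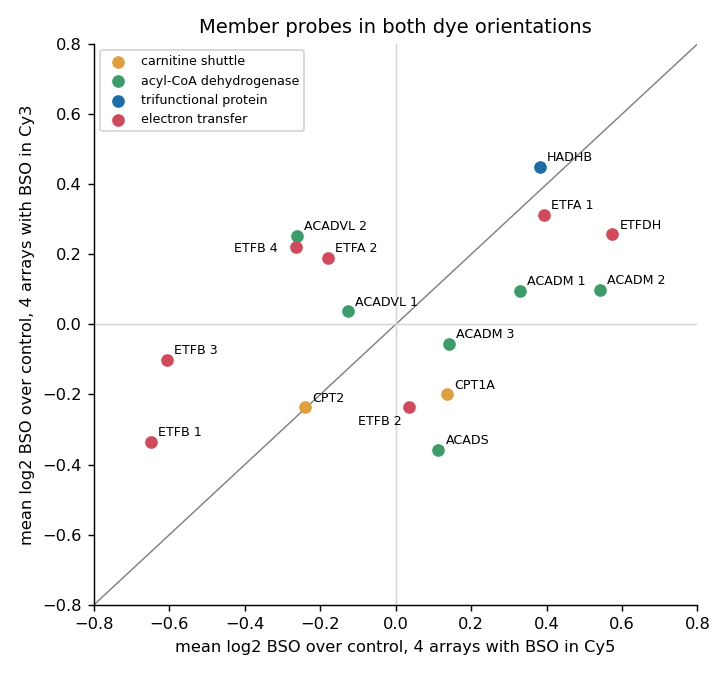
Mean log2 ratio of BSO over control on the 4 arrays with BSO in Cy5 (horizontal) and on the 4 with BSO in Cy3 (vertical) for each member probe, coloured by the step it serves. HADHB, ETFDH and the brighter ETFA probe lie in the upper right, ETFB probes 1 and 3 in the lower left, and probes such as ACADS, at 0.11 and -0.36, change sign with the orientation.

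The slides named in the labels were used as batches. Slide114 and Slide115 held replicates 1 and 2, and Slide25 held replicates 3 and 4. HADHB had means of 0.44 and 0.40 in these sets, ETFA 0.34 and 0.36 at its brighter probe, ETFDH 0.53 and 0.31, and ETFB -0.58 and -0.40 at its brightest probe. The direction of these 4 genes was therefore the same within both sets. No member probe differed between the sets at an unadjusted p under 0.05, which 7.63% of all probes did, and 0% of all probes differed at an adjusted p under 0.05 with limma.

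Genes with a pattern like that of HADHB were sought by Pearson correlation over the 8 arrays, which form 4 matched pairs and are not independent. Among 13669 other named genes, the highest values were 0.97 for POLA2, 0.96 for AK3L1, 0.96 for SEMA4A, 0.96 for CDC42SE1 and 0.95 for RBBP8. Their mean ratios were of both signs, from -0.33 for CDC42SE1 to 0.14 for AK3L1, so the likeness lies in the ordering of arrays and not in the direction of the BSO difference. POLA2 did not pass the stricter filter, and its arrays ran only from -0.16 to 0.018. These are the top of many correlations over few arrays, and how high chance alone would reach was not tested. Among the members, ACADM had the highest correlation with HADHB, at 0.78, and ETFB the lowest, at -0.72. ETFA and ETFDH, which lay above control like HADHB, had values of -0.27 and 0.26.

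Other genes of mitochondrial fatty acid oxidation gave a count near the background. Of 32 measured genes of 35 listed (activation, carnitine transport, the remaining cycle enzymes and dehydrogenases that feed the flavoprotein), 6 were higher and 2 lower at an unadjusted p under 0.05, or 25%, where 27.8% of all genes passed, and the median was 0.023. The excess of higher over lower depended on the processing, with 2 higher and 2 lower after loess normalization of the scanner intensities. It was 2 and 3 without replicate 1, 3 and 1 without replicate 2, 2 and 0 without replicate 3, and 6 and 2 without replicate 4. The share of all probes at that p moved too, from 26% to 22.4% after loess of the scanner intensities. It was 24.5%, 17.8%, 17.8% and 20.5% without replicates 1, 2, 3 and 4. Of those probes 48.6% were higher in the main fit, 38.6% after loess and 42.4% to 48% without 1 replicate. ACSL1, an acyl-CoA synthetase, was at 0.32 ± 0.073 (SE) and above 0 in all 4 replicates. This mean came from 1 dye orientation, at 0.66 with BSO in Cy5 and -0.0088 with BSO in Cy3. GCDH, a glutaryl-CoA dehydrogenase that hands its electrons to the flavoprotein, was at 0.31 ± 0.074 (SE). SLC25A20, the carnitine-acylcarnitine carrier between CPT1A and CPT2, was at -0.28 ± 0.099 (SE) and below 0 in all 4. The thioesterase ACOT13, at 0.21, and the methylmalonyl-CoA mutase MMUT, at 0.20, completed the 5 largest at an unadjusted p under 0.05. The other tested probes of GCDH and ACOT13 lay at -0.0070 and -0.10. The limma adjusted p of these 5 genes ran from 0.0920 for ACSL1 to 0.191 for ACOT13, so none passed.

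Peroxisomes shorten very-long-chain and branched fatty acids by a separate set of enzymes. Of 16 measured genes of 19 listed, 3 were higher and 2 lower at an unadjusted p under 0.05, or 31.2% against 27.8% of all genes, with a median of 0.069. SCP2, which has a thiolase form, was at 0.31 ± 0.057 (SE), HACL1, a lyase of alpha-oxidation, at 0.26 ± 0.076 (SE) and the half-transporter ABCD3 at 0.48 ± 0.17 (SE). ABCD4, a transporter placed by later work in lysosomes, was at -0.76 ± 0.14 (SE), and the reductase DECR2 at -0.19 ± 0.049 (SE). ABCD4 differed widely by dye, at -2.20 with BSO in Cy5 and 0.67 with BSO in Cy3, and its other probes ran from -0.12 to 0.28. SCP2 was at 0.58 with BSO in Cy5 and 0.046 with BSO in Cy3. The other probes of SCP2 ran from -0.22 to 0.24, those of DECR2 from -0.17 to 0.11 and those of ABCD3 from 0.11 to 0.52. The limma adjusted p of these 5 genes ran from 0.0751 for SCP2 to 0.178 for ABCD3.

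Among regulators of fatty acid oxidation, 3 of 25 measured genes (27 listed) were higher and 6 lower at an unadjusted p under 0.05, or 36%, where 27.8% of all genes passed, 13.8% higher and 14% lower. The median was -0.024. PPRC1, a coactivator of the PGC-1 family that promotes mitochondrial gene transcription, fell. It was at -0.36, -0.49, -0.52 and -0.57 in the 4 replicates, with a mean of -0.49 ± 0.047 (SE) and a limma adjusted p of 0.0484, the only gene of these lists past the threshold. With loess-normalized scanner intensities its adjusted p was 0.0515 at a mean of -0.52, with the dye term and replicate block it was 0.00254, and with any 1 replicate left out no probe of the array passed. The mitochondrial deacetylase SIRT3 was at -0.37 ± 0.058 (SE), the AMPK subunit PRKAB1 at -0.33 ± 0.089 (SE) and HNF4A, a transcription factor that is also a hypoblast marker, at -0.49 ± 0.17 (SE). All 3 were below 0 in 4 of 4 replicates, but the other SIRT3 probes lay at 0.0051 to 0.020 and the other HNF4A probe at -0.16. TFAM, which packages and transcribes mitochondrial DNA, was at 0.40 ± 0.072 (SE) and GABPA, a factor that activates nuclear genes for mitochondria, at 0.34 ± 0.069 (SE), both above 0 in 4 of 4. Their limma adjusted p ran from 0.0653 for SIRT3 to 0.172 for HNF4A.

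Of the enzymes that make or use ketone bodies and acetate, 4 of 7 were measured, with a median of 0.10. ACSS1, which activates acetate in mitochondria, was at 0.71, 0.15, 0.90 and 0.85, with a mean of 0.65 ± 0.14 (SE) and a limma adjusted p of 0.0874. The other 3 did not reach an unadjusted p of 0.05.

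**Figure D5:**
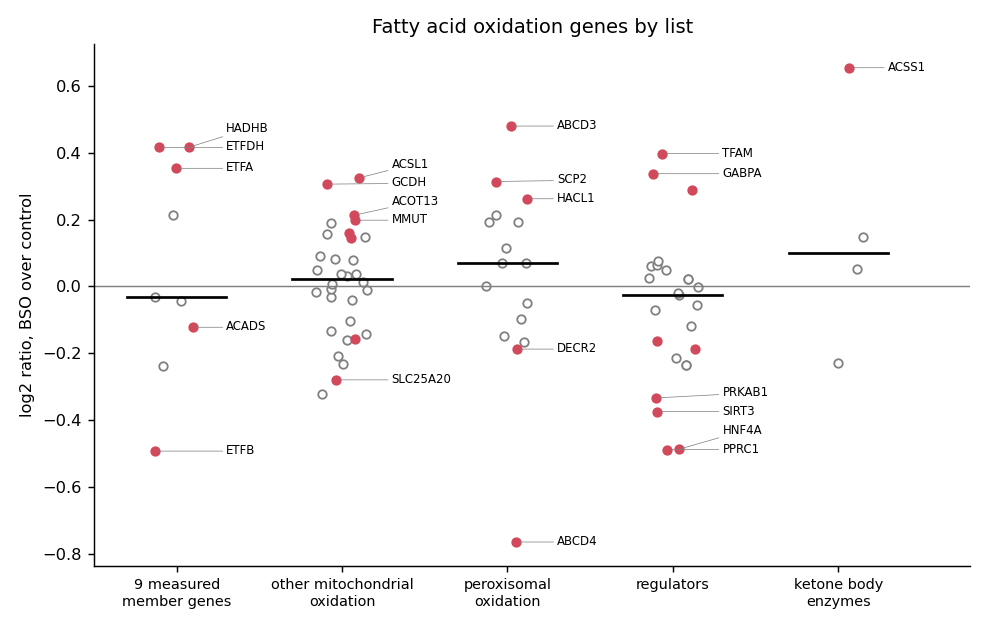
Mean log2 ratio of BSO over control of each gene, at its brightest probe, in 5 lists. Filled points had an unadjusted limma p under 0.05, horizontal bars are the list medians, between -0.031 and 0.10, and the named genes are the largest filled points of each list.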

How the data were processed

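The authors deposited a table of log2 ratios per probe and array, and scanner output with raw intensity per spot at the Cy3 and Cy5 wavelengths. Per the submitters' processing notes the tool was limma, and the normalization behind the log2 ratios is not given in the sources used here. Correlation with ratios computed from the deposited scanner intensities was 0.889 to 0.989 on the 8 arrays, which sets their direction as BSO over control. The array medians of the deposited log2 values were 0.00109 to 0.0131. Their background correction stays unknown.

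The deposited log2 ratios were tested in R 4.3.3 with limma 3.58.1, as the mean of 4 replicates against 0, with Benjamini-Hochberg adjustment over 36995 probes. Raw intensities served for the brightness filter, with limits between 96.4 and 236 per array and channel, and, after normexp with an offset of 50 and loess, as an alternative. The number of arrays limits the precision. The labels do not say which arrays share pools, so arrays of opposite orientation at the same order within slides were paired. Matched deviations correlated at 0.726 to 0.853 and unmatched ones at -0.0268 at most, a gap that is partly built in, and this pairing had the highest sum of 24.

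Gene names came from the platform annotation, updated through RefSeq (ARS-UCD2.0, names and gene order only): 17350 kept probes had a current symbol, 1360 were updated and 216 kept their old one. No genome build was given, so no coordinates are printed. The brightest kept probe stands for a gene in counts and lists. Named genes were all member probes, and from each other list the genes past the adjusted threshold and the 5 largest others at an unadjusted p under 0.05. Alternatives covered normalization, background correction, filters, array weights, the 8 arrays fitted singly with and without the replicate block, slide sets and each replicate left out. A planned HADHB minus HADHA comparison had no HADHA probe. The statistics were tested on simulated data. Members, lists and tests were chosen with earlier results of these data known.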

Additional observations from a re-analysis of the deposited data

Results flagged for a closer look

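The brighter ACADVL probe lay above 0 in both replicates of Slide114 and Slide115 and below 0 in both of Slide25, a difference of -0.206 (Slide25 minus the others), with an unadjusted limma p of 0.0517 and an adjusted p of 0.659. In 3 sets of 4 replicates, 1 value stood far from the others. They were the lowest replicate of the dimmer ETFA probe, at -0.0519, the highest replicate of ABCD3, at 1.13, and the lowest replicate of GABPA, at 0.106. Of 33 probes examined, chance would mark about 1 in 20 in this way.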

How the results depend on the processing

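Over all probes, 220 passed the limma adjusted threshold. The count was 0 with scanner intensities after normexp, with either loess or median centring. It was also 0 with the slide set as a block, within either slide set and when any replicate was left out. In all these settings 5257 to 9632 probes had an unadjusted p under 0.05. The count was 366 with the stricter filter, 468 with loess of the scanner intensities without background correction, and 1128 with array weights. With the 8 arrays fitted singly, 4234 passed with no replicate block, 4309 with the replicate block (correlation -0.0076) and 4463 with the block and a dye term (correlation 0.568), the last chosen after seeing the data. Member genes at an unadjusted p under 0.05 were 5, against 3 on Slide114 and Slide115 alone, 3 on Slide25 alone, and 4 whichever replicate was left out. The share of all probes at that p also moved. It was 26% in the main fit, 14.2% on Slide114 and Slide115, 18.3% on Slide25, and 17.8% to 24.5% without 1 replicate. The median of the member genes, -0.031, became 0.28 with the stricter filter, which tests fewer genes, and 0.059 on Slide114 and Slide115, and ran from -0.060 to 0.0029 without 1 replicate. List medians moved to -0.12 (regulators) and 0.19 (peroxisomal) with the stricter filter and to 0.052 (other mitochondrial genes) on Slide114 and Slide115. Without 1 replicate they ran from -0.097 to -0.013 (regulators) and -0.0027 to 0.22 (ketone bodies).

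Of 234 alternative values of single probes, 201 kept sign and side of the threshold, 15 passed it and 18 had the opposite sign. Most of those that passed came from fits of the arrays singly. Without a dye term, such fits counted paired arrays as independent or almost so. In the other settings only HADHB passed, without background correction and with array weights. The values of opposite sign were all of probes near 0 or widely spread. On Slide114 and Slide115, values were 0.0589 (brighter ACADVL), 0.0148 (CPT1A), -0.0131 (dimmer ETFA), 0.0235 (second ETFB) and 0.0476 (dimmest ETFB). The dimmer ACADVL probe was at 0.0032 with array weights and 0.011 on Slide25, CPT1A at 0.0033 with median centring, and the dimmer ETFA probe at -0.015 with scanner intensities and -0.0023 without background correction. Without 1 replicate, ranges were -0.014 to 0.0100 (dimmer ACADVL), -0.060 to 0.0029 (CPT1A), -0.0032 to 0.024 (dimmer ETFA), -0.36 to 0.072 (second ETFB) and -0.11 to 0.020 (dimmest ETFB). ETFA minus ETFB stayed above 0, from 0.67 to 0.96. The causes were not tested.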
